A study of Gallus gallus with 3 samples.

Results

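Exon junction complexes are protein assemblies that splicing leaves on messenger RNA just upstream of the joined exons. Nonsense-mediated decay reads them: where a ribosome stops with such a complex still downstream, UPF3B and UPF2 connect the complex to the helicase UPF1, the kinase SMG1 phosphorylates UPF1, and enzymes such as the endonuclease SMG6 destroy the transcript. The pathway removes transcripts with premature stop codons, which in B cells include those of immunoglobulin genes rearranged out of frame, and it tunes the level of many normal transcripts. These roles are known mainly from human and other mammalian cells.

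The genes described here are those of 9 chosen symbols that had a row in the deposited tables of the chicken B cell line DT40: EIF4A3, RNPS1, UPF3B, UPF2, UPF1, SMG1 and SMG6. These 7 were found by exact symbol among 11877 genes with counts, and all 7 also had an FPKM value and passed the filter on low counts, so that 7 of 10203 tested genes were members. MAGOH and CASC3, the other 2 symbols and both subunits of the exon junction core, are not analysed here. Levels within a library are given as deposited FPKM, which is scaled by transcript length so that genes can be set side by side. This has limits, because counts and FPKM gave some genes unlike places, as for UPF3A below. Differences between libraries are given as ratios of counts scaled with edgeR's TMM factors, with levels on that scale as CPM (reads in each 1000000 of the scaled library).

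All 3 libraries came from DT40-ASF, a line in which, from general knowledge of it and not from the files, chicken SRSF1 is disrupted and a human cDNA copy (ASF) is supplied. DT40 itself derives from a bursal lymphoma. The knock-in group held 2 transfected clones with the genotype SRSF1-3 knock in, clone 41 and clone 47, each with 1 library. The control group was 1 library of untransfected DT40-ASF cells. SRSF1 is an SR protein, a regulator of splicing, and SRSF1-3 is one of its splice isoforms. The sources used here give neither the promoter nor the integration site of the knock-in. Both knock-in libraries were clones and the control was not labelled as one, so the knock-in, the transfection and clonal history cannot be told apart. The labels name no separate cultures within a clone. The p-values measure only the spread between these 2 clone libraries, in large part as pooled over all tested genes. A p-value or SE is thus not set by a gene's own spread alone.

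Total counts were 42439517 in clone 41 and 41760372 in clone 47, against 44868987 in the control. SRSF1 had 1991 counts in clone 41 and 5645 in clone 47, against 1402 in the control, which gave ratios to the control of 1.58 and 4.16. By deposited FPKM these ratios were 1.32 and 4.47. By counts, 15.3% of tested genes were at least as far from the control in clone 41 and 4.09% in clone 47. Counts per gene do not tell its isoforms or a human copy apart. All 8 B cell markers had reads in every library, and their summed level was 594 CPM in clone 41 and 420 CPM in clone 47, against 695 CPM in the control. The 4 T cell markers summed to 8.8 CPM in clone 41 and 9.31 CPM in clone 47, against 12 CPM in the control, and none of them was at 0. Within that sum LCK stood at 0.124 CPM in clone 41 and 2.59 CPM in clone 47, against 0.266 CPM in the control, and CD28 at 1.11 and 0.642 CPM, against 4.99 CPM in the control. The 3 myeloid markers summed to 95.2 and 123 CPM, against 94.2 CPM in the control, nearly all from CEBPB and MPEG1. These lay on opposite sides of the control in clone 47: CEBPB stood at 59.7 CPM in clone 41 and 118 CPM in clone 47, against 58.1 CPM in the control, and MPEG1 at 35.5 and 5.27 CPM, against 36.1 CPM in the control. CSF1R, a defining macrophage receptor, had at most 1 count in any library. The 4 fibroblast and epithelial markers summed to 29.7 and 16 CPM, against 20.3 CPM in the control. Nearly all of this came from COL1A2, at 29.2 and 15.4 CPM, against 19.8 CPM in the control. COL3A1 was at 0 in clone 47 and the control. Erythroid and thrombocyte markers are not analysed here. The part of these marker levels in the results below was not tested.

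Within each library, the members spanned a wide range of levels. EIF4A3, the DEAD-box helicase that clamps the exon junction complex to RNA, stood at 215 FPKM in clone 41 and 186 FPKM in clone 47, against 233 FPKM in the control. It was the most abundant member in clone 41 and in the control. In clone 47 that place was taken by RNPS1, which stood at 228 FPKM. At the low end of all 3 libraries was UPF2, at 6.31 FPKM in clone 41 and 9.07 FPKM in clone 47, against 10.2 FPKM in the control.

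In clone 41 the order of levels from high to low was EIF4A3, UPF1, RNPS1, UPF3B, SMG1, SMG6 and UPF2, and the control had the same order. In clone 47 it was RNPS1, EIF4A3, UPF3B, UPF1, SMG1, SMG6 and UPF2. Each neighbour in these orders differed from the next beyond counting error except SMG6 and UPF2 in the control, whose FPKM ratio was 1.02 (95% interval 0.978 to 1.06). Some other steps were small. UPF1 stood 1.04 times above RNPS1 in the control (interval 1.01 to 1.06), and UPF3B stood 1.03 times above UPF1 in clone 47 (interval 1.01 to 1.06). The intervals come from read counts alone, while the 2 deposited measures can differ by more than these small steps. For UPF3B, clone 47 over the control was 0.873 by counts and 0.797 by FPKM. The order across such small steps is therefore not settled. With 1 library each, the spread of these levels between cultures is unknown.

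**Figure D1:**
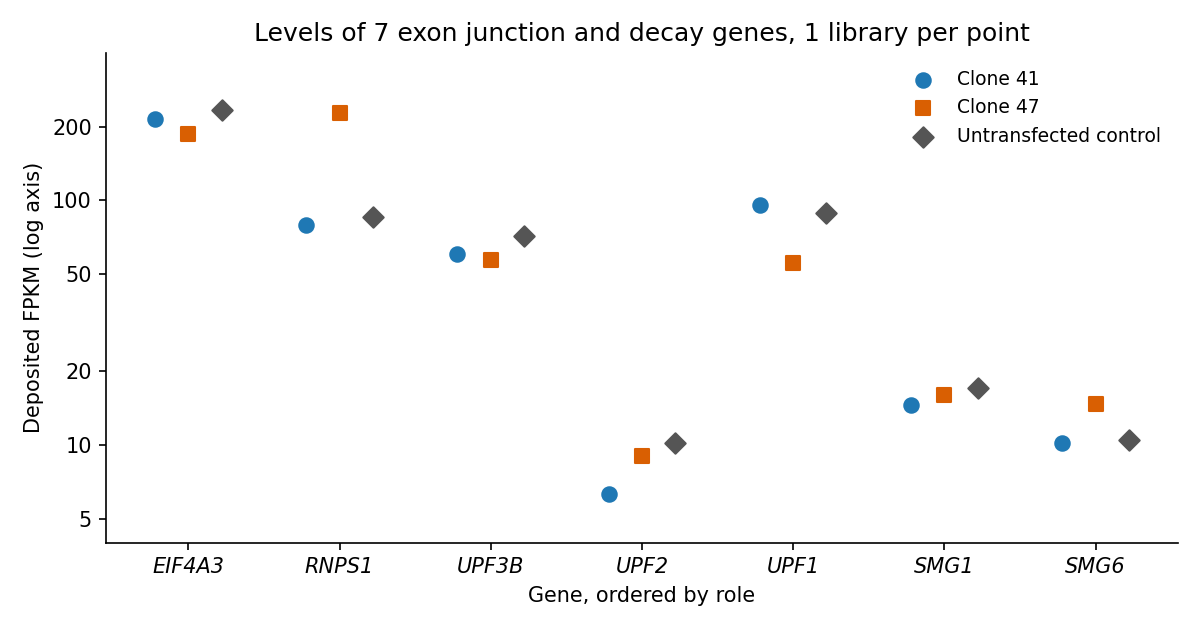
Deposited FPKM (vertical log axis) of the 7 genes in clone 41 (circles), clone 47 (squares) and the untransfected control (diamonds), 1 library per point and no error bars because there are no replicates. RNPS1 in clone 47, at 228 FPKM, stands apart from its 79.4 FPKM in clone 41 and 85.8 FPKM in the control, while the 3 points of SMG1 lie between 14.6 and 17.2 FPKM.

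The comparison of knock-in with control asked whether the clones as a group differed from the untransfected cells. No member passed edgeR's quasi-likelihood F test after Benjamini-Hochberg adjustment over all genes, and all 7 had an adjusted p = 1. Of all tested genes 0% passed (0 of 10203). At an unadjusted p below 0.05 there were 0 members and 81 genes in all, or 0.794%. The legacy form of the test and DESeq2 also called 0 members beside 0.0196% of tested genes each, and limma on log2(FPKM + 1) called 0 members and 0 genes. With 3 libraries and 2 coefficients, each gene leaves 1 residual degree of freedom, and the fit takes the lone control to vary like the clones. SRSF1, the gene of the knock-in, had a fitted log2 fold change of 1.52 (SE 0.55) and was not called either. A gene that was not called is thus not shown to be unchanged.

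Clone by clone, without a test, 0 of 7 members reached 2-fold in clone 41, where 8.75% of tested genes did. In clone 47 the count was 1 of 7, RNPS1, where 17.0% of tested genes did. At a threshold of 1.5-fold, 1 member passed in clone 41 (UPF2, beside 17.9% of tested genes), 2 in clone 47 (RNPS1 and UPF1, beside 35.8%) and 2 between the clones (RNPS1 and UPF1, beside 41.0%). The median log2 ratio of the members was -0.06 in clone 41 and -0.20 in clone 47, and that of all tested genes was within 0.01 of 0 in both. The log2 ratios of the members ran between -0.65 and 0.16 in clone 41 (SD 0.25), and those of all tested genes had an SD of 0.63. In clone 47 they ran between -0.69 and 1.36 (SD 0.68), where all tested genes had an SD of 0.88. Without RNPS1 the SD over the members in clone 47 was 0.41, which leaves out the furthest member while all tested genes were kept. The members had at least 2680 counts in each library. The tested genes include some with few reads, such as COL1A1 with 9 counts in clone 41, whose counting error widens the SD of all tested genes. No SD was taken at matched counts, so these SDs do not show that the members varied less than other genes of their level. In these bulk samples, fewer cells of a type and less RNA per cell cannot be told apart.

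**Figure D2:**
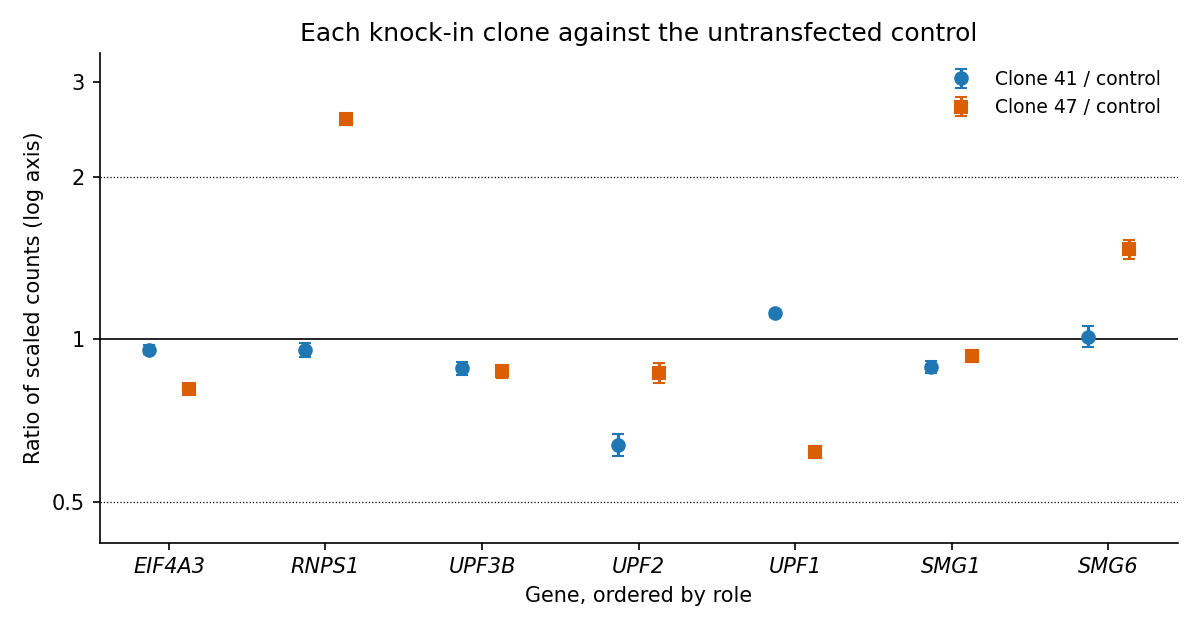
Ratio of TMM-scaled counts of each knock-in clone to the untransfected control (vertical log axis), for clone 41 (circles) and clone 47 (squares), with exact 95% intervals of counting error, dotted lines at 2-fold and a solid line at equality. RNPS1 in clone 47, at 2.56 times, is the only point outside the dotted lines; UPF2 in clone 41 and UPF1 in clone 47 have ratios of 0.638 and 0.619.

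Of the exon junction core, EIF4A3 was the member with values. It had 16622 counts (411 CPM) in clone 41 and 15108 counts (346 CPM) in clone 47, against 19336 counts (429 CPM) in the control. Both clones lay below the control, clone 41 only slightly. The clone 41 ratio to the control was 0.958 (interval 0.939 to 0.978) and the clone 47 ratio was 0.808 (interval 0.791 to 0.825). The fitted log2 fold change was -0.18 (SE 0.45). Of all tested genes, 84.6% were at least as far from the control in clone 41 and 61.1% in clone 47.

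RNPS1 is an RS-domain protein of the periphery of the exon junction complex and, in human cells, an activator of splicing and a stimulator of nonsense-mediated decay. It had 7916 counts (196 CPM) in clone 41 and 22843 counts (524 CPM) in clone 47, against 9223 counts (205 CPM) in the control. Clone 41 and the control lay close together, and clone 47 stood above both. The clone 41 ratio to the control was 0.957 (interval 0.928 to 0.986) and the clone 47 ratio was 2.56 (interval 2.5 to 2.62). By deposited FPKM these ratios were 0.925 and 2.66.

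The shares of tested genes given here were not matched for level. They take in genes with few reads, which reach large ratios by counting error more readily. On that footing, RNPS1 in clone 47 was beyond most tested genes: 9.99% of them were at least as far from the control there, and 83.9% were in clone 41. Its fitted log2 fold change over both clones was 0.81 (SE 0.52, unadjusted p = 0.128, adjusted p = 1 in edgeR's quasi-likelihood test). Without clone 47 the value was -0.06, so the fitted difference rested on that library alone. The mean of the clones was 360 CPM with an SD of 232 CPM (n = 2), against 205 CPM in the control.

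The same RNPS1 values can be written as shares of the members. RNPS1 made up 16.5% of the summed FPKM of the 7 genes in clone 41 and 40.3% in clone 47, against 16.6% in the control. Set against EIF4A3, the FPKM of RNPS1 had a ratio of 0.369 in clone 41 and of 1.23 in clone 47, against 0.369 in the control. Within the summed counts of a library, the 7 genes together held 0.189% in clone 41 and 0.208% in clone 47, against 0.204% in the control.

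The nearest tested genes to RNPS1 in chromosome order, 2 on each side, were looked at after its values were seen, with the order taken from the RefSeq table of assembly GRCg7b. In clone 47, 3 of these 4 lay below the control, beside 5085 of the 10203 tested genes. TELO2 had ratios to the control of 0.981 (clone 41) and 0.825 (clone 47), and ATP6V0C, on the other side, of 1.1 and 0.818. CCNF, the next gene beyond ATP6V0C, had ratios of 0.864 and 0.914. The fourth, TMEM204, beyond TELO2, was higher in clone 47, but on few reads, with 5 counts in clone 41 and 31 in clone 47, against 5 in the control. By pattern over the 3 libraries, the closest of 7911 genes with a mean of at least 5 CPM were UCKL1 (ratios of 0.97 for clone 41 and 2.51 for clone 47), PTTG1 (0.928 and 2.65) and IQCD (0.935 and 2.47). Their distances to RNPS1 over both log2 ratios were 0.037, 0.067 and 0.069, and 37 genes lay within 0.2.

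UPF3B is the protein that binds the exon junction complex and hands it on to UPF2. It had 9016 counts (223 CPM) in clone 41 and 9595 counts (220 CPM) in clone 47, against 11355 counts (252 CPM) in the control. The clones lay almost level with each other and below the control. Relative to the control, the clone 41 ratio was 0.885 (interval 0.861 to 0.91) and the clone 47 ratio was 0.873 (interval 0.85 to 0.898). Over both clones the fitted log2 fold change was -0.19 (SE 0.42). This was the member on which the clones differed least, with an SD of 2.07 CPM around a mean of 221 CPM (n = 2), and clone 47 over clone 41 was 0.987 (interval 0.959 to 1.02). Ratios this near to 1 depended on the scaling, and with total counts the same ratio was 1.08. The nearest tested genes to UPF3B in chromosome order, 2 on each side, were looked at after the values were seen. Their clone 41 ratios to the control were 0.584 (ZBTB33), 0.771 (NDUFA1), 0.77 (NKRF) and 0.728 (UBE2A). In clone 47 they were 0.869, 1.23, 0.871 and 1.04 in that order. The part of position in the UPF3B values was not tested.

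UPF2 is the adaptor between UPF3B and UPF1. It had 2680 counts (66.3 CPM) in clone 41 and 3925 counts (90 CPM) in clone 47, against 4684 counts (104 CPM) in the control. Both clones were below the control, clone 41 the further. Relative to the control, the clone 41 ratio was 0.638 (interval 0.608 to 0.669) and the clone 47 ratio was 0.866 (interval 0.83 to 0.904). In clone 41 the nearest tested genes to UPF2 in chromosome order, 2 on each side, were also below the control. They were looked at after the values were seen, and 5116 of the 10203 tested genes were below the control there. Their clone 41 ratios were 0.758 (USP6NL), 0.909 (ECHDC3), 0.469 (DHTKD1) and 0.6 (SEC61A2). In clone 47 they were 1.02, 0.881, 2.72 and 1.75 in that order. The part of position was not tested. The UPF2 ratio was the lowest of any member in clone 41, and 15.7% of tested genes were at least as far from the control there. The fitted log2 fold change was -0.41 (SE 0.43, unadjusted p = 0.352, adjusted p = 1 in edgeR's quasi-likelihood test), with -0.65 from clone 41 alone and -0.21 from clone 47 alone.

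UPF1, the RNA helicase on which the decay pathway turns, had the most counts of the members in clone 41 and in the control. It had 29921 counts (740 CPM) in clone 41 and 17892 counts (410 CPM) in clone 47, against 29878 counts (663 CPM) in the control. The control lay between the clones, nearer to clone 41. The clone 41 ratio to the control was 1.12 (interval 1.1 to 1.13) and the clone 47 ratio was 0.619 (interval 0.608 to 0.631). By FPKM the ratios were 1.07 and 0.623. In clone 47, 29.1% of tested genes were at least as far from the control. The fitted log2 fold change of -0.20 (SE 0.50) averaged unlike clones, being 0.16 without clone 47 and -0.69 without clone 41.

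The levels of UPF1 and UPF3B relative to UPF2 varied between libraries. The FPKM ratio of UPF1 to UPF2 was 15.1 in clone 41 and 6.11 in clone 47, against 8.67 in the control. The FPKM ratio of UPF3B to UPF2 was 9.6 in clone 41 and 6.31 in clone 47, against 7 in the control. These are ratios of messenger RNA levels and say nothing of the proteins.

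SMG1, a kinase of the PI3K-related family that phosphorylates UPF1, varied little. It had 10492 counts (259 CPM) in clone 41 and 11844 counts (272 CPM) in clone 47, against 13135 counts (291 CPM) in the control. Both clones were slightly below the control, with a clone 41 ratio of 0.89 (interval 0.868 to 0.914) and a clone 47 ratio of 0.932 (interval 0.909 to 0.956). The fitted log2 fold change was -0.13 (SE 0.42). In clone 47, 86.1% of tested genes were at least as far from the control.

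SMG6 is the endonuclease that cuts the target transcript near the stop codon. It had 3509 counts (86.8 CPM) in clone 41 and 5486 counts (126 CPM) in clone 47, against 3854 counts (85.5 CPM) in the control. Clone 41 and the control were level within counting error, and clone 47 was above them. The clone 41 ratio to the control was 1.01 (interval 0.969 to 1.06) and the clone 47 ratio was 1.47 (interval 1.41 to 1.53), and by FPKM 0.973 and 1.41. Fitted over both clones the log2 fold change was 0.31 (SE 0.44), and 37.8% of tested genes were at least as far from the control in clone 47. The FPKM ratio of SMG6 to UPF1 was 0.107 in clone 41 and 0.266 in clone 47, against 0.118 in the control.

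**Figure D3:**
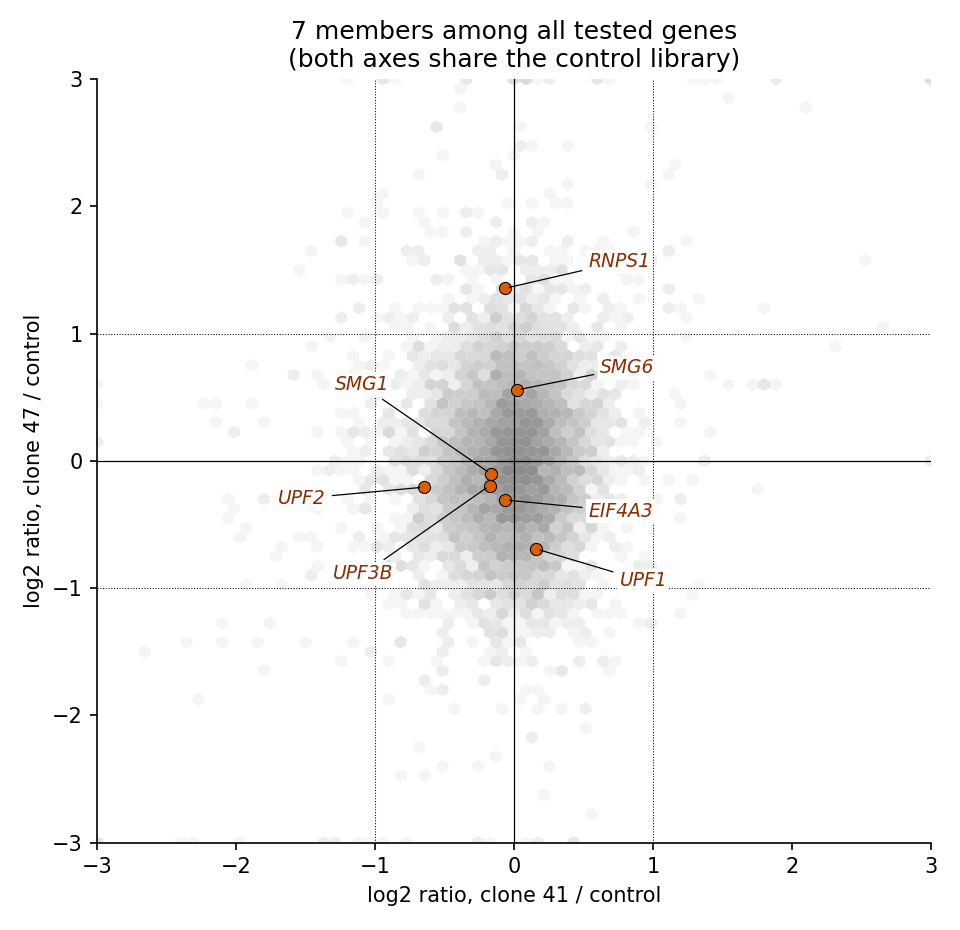
Log2 ratio to the control in clone 41 (horizontal) and in clone 47 (vertical) for all 10203 tested genes (grey, darker where more genes lie; values beyond 3 drawn at the edge) and the 7 members (orange), with dotted lines at 2-fold. Both axes share the control library, so no relation between them is read; RNPS1 lies above the upper dotted line at -0.06 and 1.36, and UPF2 lies furthest left of the members at -0.65 and -0.21.

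Clone 47 was also set directly against clone 41, with 1 library each and no test. Between the clones, 1 of 7 members, RNPS1, was at least 2-fold apart, where 20.8% of tested genes were. RNPS1 was 2.68 times as high in clone 47 as in clone 41 (interval 2.61 to 2.75). UPF1 was at 0.554 times (interval 0.544 to 0.565), SMG6 at 1.45 times (interval 1.39 to 1.51) and UPF2 at 1.36 times (interval 1.29 to 1.43). EIF4A3 was at 0.843 times (interval 0.824 to 0.862) and SMG1 at 1.05 times (interval 1.02 to 1.07). The log2 ratios of the members ran between -0.85 and 1.42, with a median of 0.07 beside 0.03 for all tested genes.

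Other genes of the pathway were taken from lists of known partners, factors and targets. No gene of these lists passed edgeR's quasi-likelihood test over all genes, and none had an unadjusted p below 0.05. DESeq2 and the legacy estimator each called 2 genes over the whole table, and the names of those genes are not reported here.

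Of 8 exon junction partners 4 were tested, and none was 1.5-fold from the control in either clone, where 17.9% of tested genes were in clone 41 and 35.8% in clone 47. The list had a median log2 ratio of 0.06 in clone 41 and 0.01 in clone 47. SAP18 and PNN, which in human cells form complexes with RNPS1, did not share its high level in clone 47. SAP18 had ratios to the control of 1.14 (clone 41) and 0.8 (clone 47, interval 0.774 to 0.826). PNN had ratios of 1.06 (clone 41) and 1.14 (clone 47, interval 1.11 to 1.17). ALYREF, an mRNA export adaptor, had ratios of 0.934 and 1.1, and PYM1, which takes exon junction complexes apart, of 1.02 and 0.925.

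Of 14 further decay factors 10 were tested. Their median log2 ratio was within 0.01 of 0 in clone 41 and -0.20 in clone 47. In clone 41, 0 of the 10 were past 2-fold, where 8.75% of tested genes were. In clone 47, 1 of the 10 was, where 17.0% of tested genes were and 9.42% were at least 2-fold higher. At 1.5-fold the counts were also 0 in clone 41 and 1 in clone 47, beside 17.9% and 35.8% of tested genes. The gene past 2-fold was PNRC2, which in human cells links UPF1 to the decapping enzyme. PNRC2 had 14563 counts (101 FPKM) in clone 41 and 41306 counts (280 FPKM) in clone 47, against 18605 counts (122 FPKM) in the control. As with RNPS1, clone 47 was the high library, and the clone 41 ratio to the control was 0.873 (interval 0.854 to 0.892) and the clone 47 ratio was 2.29 (interval 2.26 to 2.34). The fit over both clones gave a log2 fold change of 0.66 (SE 0.55, unadjusted p = 0.242).

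NCBP1, a subunit of the nuclear cap-binding complex, had ratios to the control of 0.832 (clone 41) and 0.735 (clone 47). ETF1, the release factor that recognises stop codons, had ratios of 1.02 and 0.778. SMG5, an adaptor that binds phosphorylated UPF1, had ratios of 0.986 and 0.786. UPF3A, the paralogue of UPF3B and named here after its values were seen, had 578 counts in clone 41 and 453 in clone 47, against 513 in the control. Its deposited FPKM was only 0.476 in clone 41 and 0.278 in clone 47, against 0.344 in the control. PYM1, with 853 counts in clone 41, had 14.6 FPKM there, so counts and FPKM gave UPF3A unlike places among the decay genes.

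All 6 genes of decapping and exonuclease decay were tested, with a median log2 ratio of 0.05 in clone 41 and -0.15 in clone 47. Of these, 0 were past 2-fold in either clone, where 8.75% of tested genes were in clone 41 and 17.0% in clone 47. At 1.5-fold the counts were 0 in clone 41 and 1 in clone 47, beside 17.9% and 35.8% of tested genes. EXOSC10, a nuclear exosome nuclease, was the furthest of the 6 in clone 47. Its ratios were 1.06 (clone 41) and 0.526 (clone 47, interval 0.509 to 0.543). XRN1, which degrades decapped RNA from its 5′ end, had ratios of 0.978 and 1.35. DCP1A, a cofactor of decapping, had ratios of 1.06 and 1.29, and DIS3, the catalytic exosome nuclease, of 1.01 and 0.79. Between the clones, 1 of the 6, EXOSC10, was past 2-fold, where 20.8% of tested genes were. Its ratio of clone 47 over clone 41 was 0.496 (interval 0.48 to 0.513).

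Of 8 genes whose transcripts are known in human cells as targets of nonsense-mediated decay, 6 were tested. The list had a median log2 ratio of 0.02 in clone 41 and 0.44 in clone 47, where all tested genes had a median within 0.01 of 0. In clone 47, 5 of the 6 were above the control, beside 5115 of the 10203 tested genes, and 1 was at least 2-fold higher, where 9.42% of tested genes were. That gene was GADD45A, a stress-induced regulator of growth arrest. GADD45A had 1723 counts (33.2 FPKM) in clone 41 and 5839 counts (110 FPKM) in clone 47, against 2164 counts (39.1 FPKM) in the control. The clone 41 ratio was 0.888 (interval 0.833 to 0.946) and the clone 47 ratio was 2.79 (interval 2.65 to 2.93). The fit over both clones gave a log2 fold change of 0.88 (SE 0.55, unadjusted p = 0.121).

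ATF4, a transcription factor of the integrated stress response, had ratios to the control of 1.17 (clone 41) and 1.56 (clone 47). ATF3, a related factor, lay below the control, with ratios of 0.86 and 0.723. GADD45B had ratios of 1.4 (clone 41) and 1.36 (clone 47) by counts. By FPKM they were 0.809 and 1.59, so its direction in clone 41 depended on which deposited measure was used. At 1.5-fold, 0 of the 6 tested targets passed in clone 41 and 2 in clone 47 (GADD45A and ATF4), beside 17.9% and 35.8% of tested genes. No value here measures the decay of these transcripts.

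**Figure D4:**
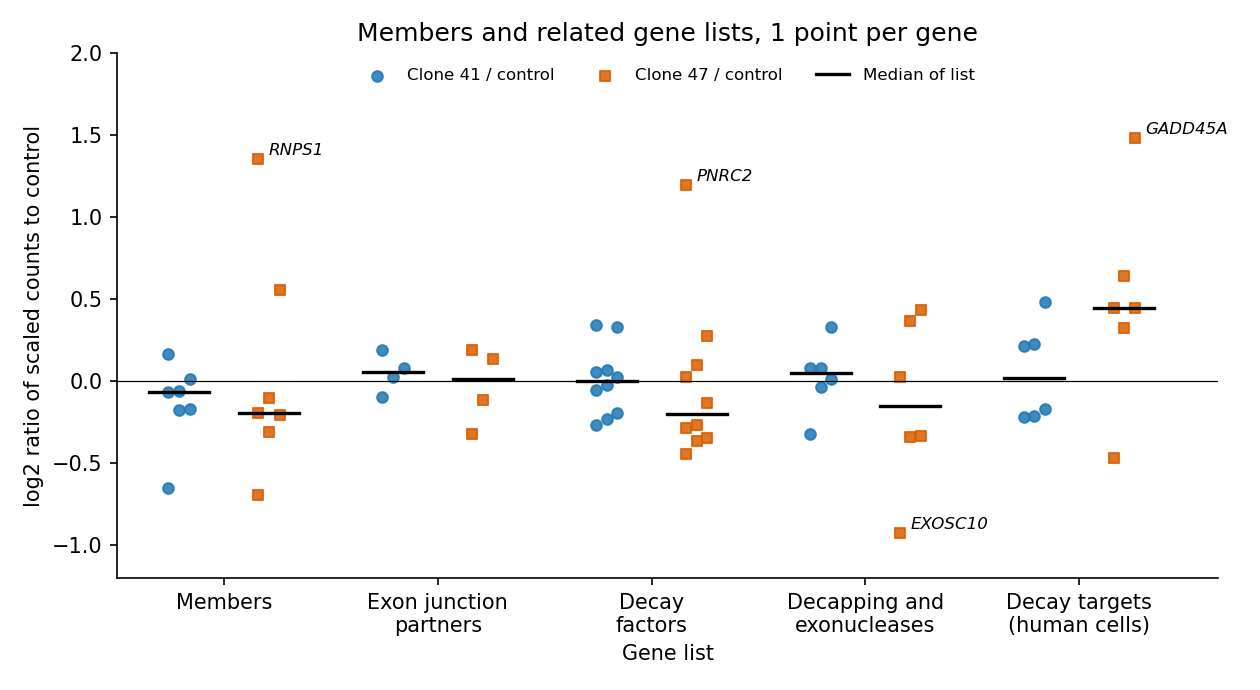
Log2 ratio of TMM-scaled counts to the control for each tested gene of 5 lists (1 point per gene), in clone 41 (circles) and clone 47 (squares), with the median of each list as a black bar. RNPS1, PNRC2 and GADD45A, at 2.56, 2.29 and 2.79 times the control in clone 47, stand above the other genes of their lists, and EXOSC10, at 0.526 times, below its own.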

How the data were processed

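RNA was measured in 2 knock-in libraries and 1 control library. Per the labels' protocols, the kit enriched mRNA and kept strand, and both ends of fragments were read. TopHat2, Bowtie, Cufflinks 2.2.1, Cuffdiff and build galGal4 are named, per the submitters' processing notes. The sources used here give no counter, annotation or strand setting. The authors deposited whole-number read counts per gene, called absolute on their cover sheet, and FPKM values, called normalised there. Genes overlapping on opposite strands may therefore share reads.

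The counts were filtered with filterByExpr (minimum count 10, minimum total 15) in edgeR 4.0.16 under R 4.3.3, scaled by TMM and tested with the newer quasi-likelihood estimator at an adjusted p of 0.05 over 10203 genes. The fit was checked on simulated data with changes far larger than those of the members, so changes of their size were not covered. SEs were derived from the F statistic. Ratios of single libraries carry exact conditional binomial 95% intervals, and FPKM ratios between genes carry intervals from both counts; both leave out all error but that of counting, and PCR copies of 1 molecule are counted apart. Calls by fold used log2 CPM with a prior count of 2. A count of 0 allows up to 0.0742 CPM in clone 41 and 0.0688 in clone 47, against 0.0666 in the control (3 counts). The clones' counts differed far beyond sampling noise (chi-square 316 per degree of freedom). Alternatives were DESeq2 1.42.0, the legacy estimator, other scalings, no filter, limma 3.58.1 on log2(FPKM + 1) and log2(FPKM + 0.1), FPKM ratios and leaving out a clone.

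Members and lists were chosen with earlier results of these data known. List genes are named where they are among the 4 furthest from the control in clone 47 with a mean of at least 5 CPM. No sequence was at hand for the members, so none is shown. 1 marker gene of the lists is not reported here.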

Additional observations from a re-analysis of the deposited data

How the results depend on the processing

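With both clones in the fit, the log2 fold changes of the members kept their direction in all 49 comparisons with other estimators, scalings, filters and measures, and each adjusted p was 1. Over all genes, the legacy estimator called 2 and DESeq2 called 2, against 0 with the newer estimator. Leaving out a clone left 1 library a side and no test: the value of RNPS1 was then between -0.06 and 1.36 and that of UPF1 between -0.69 and 0.16, while the other 5 members kept their direction. A 1.5-fold threshold in place of 2-fold counted 1 member in clone 41 (UPF2), 2 in clone 47 (RNPS1 and UPF1) and 2 between the clones (the same genes). Total-count scaling moved the median log2 ratio of all genes by -0.08 in clone 41 and 0.06 in clone 47. Of 63 single-library ratios under other scalings or FPKM, 33 lay outside the counting interval of the TMM ratio, none across the 2-fold line. With total counts SMG6 passed 1.5-fold, at 1.53 for clone 47 over the control (1.47 by TMM) and 1.59 between the clones (1.45 by TMM); SMG6 in clone 41 was 1.01 by TMM, 0.963 by total counts and 0.973 by FPKM, so its side of the control was not fixed. No paired analysis was possible because the groups share no replicate numbers in the labels and the control is 1 library. The members had at least 2680 counts in each library.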
